A study of Mus musculus with 4 samples.

Results

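The proteasome genes outside the 3 immune catalytic subunits were followed across RNA libraries of mouse macrophages. They were found by name: the symbol begins with Psm, a letter from a to g and a digit, at least 1 annotated transcript is protein-coding, and Psmb8, Psmb9 and Psmb10 are left out. The rule found 47 of the 55536 annotated genes. They comprise 14 genes of the core particle, 17 of the regulatory cap, 7 for assembly chaperones, 6 for activators or an inhibitor, and 2 tissue-specific core genes, Psma8 and Psmb11. The last, Psmc3ip, matched by symbol alone: its product is a meiotic recombination factor named after a partner and is no proteasome subunit. Another 4 matching symbols, Psmb5-ps, Psmb6-ps, Psmb6-ps2 and Psmb7-ps2, have no protein-coding transcript and were left out.

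The RNA came from the cytosolic fraction of primary bone marrow-derived macrophages of C57BL/6J mice, stimulated with lipid A at 100 ng/ml for 15 min, and was sequenced after ribosomal RNA depletion. Lipid A is the part of bacterial lipopolysaccharide that Toll-like receptor 4 recognises. All 4 libraries, replicates 1 to 4, carry that same stimulus, the labels name no allele or transgene, and sex and age are given as not collected. One donor record is named for all 4, so it is not known whether they came from separate animals or cultures, and p-values then reflect the spread among these 4 samples alone, part of which may be technical. No unstimulated library was analysed here, so no value below is a response to the stimulus.

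The proteasome is the barrel-shaped protease that degrades ubiquitin-tagged proteins in every nucleated cell. Alpha subunits form the outer rings and the gate of the core, beta subunits form the inner rings with the proteolytic sites, and the cap holds the ATPases that unfold a substrate and the lid that removes its ubiquitin. In macrophages interferon adds the immune catalytic subunits, which replace their constitutive counterparts and alter the peptides available for antigen presentation.

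The libraries held between 30088678 and 47961117 expected counts on annotated genes, replicate 1 being the shallowest. The tested members had mean counts between 49.6 and 8674. The signal recognition particle RNA 7SL took between 57.1% and 63.3% of all TPM, the length-corrected abundance deposited with the counts, and protein-coding genes took 29.6%, 22.7%, 22.2% and 31.6% in replicates 1, 2, 3 and 4. TPM of a protein-coding gene therefore moves with that share. For comparisons between libraries, TPM was rescaled to the nuclear protein-coding genes alone, so that these make up the whole total of each library, and is called rescaled TPM below. All 8 macrophage markers were detected, here meaning a mean of at least 1 TPM, led by Lyz2 between 4053 and 6886 TPM. Replicate 1 stood apart from the others: of the 14041 genes whose mean count reached 10, 3096 differed in it by the quasi-likelihood test of edgeR, with p-values adjusted by Benjamini-Hochberg and 0.05 as the limit.

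The upstream sequences of a few members are shown first, because short motifs could be compared there between the members higher in replicate 1 and the other members. TGACNNNGC is the core of the antioxidant response element, the kind of site that the proteasome regulator Nfe2l1 binds, and CGGAAG is the core of sites bound by ETS factors. The 250 bases before the RefSeq gene start (GRCm38.p6) are given 5′ to 3′ on the gene's strand, with motif matches in capitals. Psmb5 and Psmb6 both encode constitutive catalytic subunits and both hold TGACNNNGC. Psmd8 is the most abundant cap gene in TPM and holds CGGAAG on the reverse strand as CTTCCG. Psmg1 had the highest fold of the assembly genes in replicate 1 and holds CGGAAG at 3 places.
Psmb5, chr14:54617996-54618245, minus strand: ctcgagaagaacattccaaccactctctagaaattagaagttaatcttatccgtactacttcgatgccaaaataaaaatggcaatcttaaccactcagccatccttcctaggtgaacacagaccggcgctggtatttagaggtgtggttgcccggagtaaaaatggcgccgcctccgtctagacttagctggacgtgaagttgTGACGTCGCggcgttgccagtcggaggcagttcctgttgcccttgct
Psmb6, chr11:70525107-70525356, plus strand: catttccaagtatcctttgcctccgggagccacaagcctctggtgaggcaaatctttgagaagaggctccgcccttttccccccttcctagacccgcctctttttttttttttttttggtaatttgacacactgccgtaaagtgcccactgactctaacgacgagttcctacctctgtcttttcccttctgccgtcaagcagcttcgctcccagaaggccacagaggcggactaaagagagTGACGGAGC
Psmd8, chr7:29180674-29180923, minus strand: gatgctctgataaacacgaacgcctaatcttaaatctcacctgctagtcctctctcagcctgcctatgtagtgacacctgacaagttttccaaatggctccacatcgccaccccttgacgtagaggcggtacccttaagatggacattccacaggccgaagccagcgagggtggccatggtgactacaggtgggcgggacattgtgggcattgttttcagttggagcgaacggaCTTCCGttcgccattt
Psmg1, chr16:95990961-95991210, minus strand: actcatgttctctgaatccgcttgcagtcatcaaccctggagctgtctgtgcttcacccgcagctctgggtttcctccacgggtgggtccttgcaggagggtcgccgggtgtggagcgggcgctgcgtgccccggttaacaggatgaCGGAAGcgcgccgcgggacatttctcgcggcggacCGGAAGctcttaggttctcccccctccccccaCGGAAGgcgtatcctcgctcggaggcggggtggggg

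The TGACNNNGC match lies 47 to 39 bases before the start of Psmb5 and 9 to 1 bases before that of Psmb6. In Psmd8 the CTTCCG match lies 16 to 11 bases before the start. In Psmg1 the 3 CGGAAG matches begin 103, 68 and 36 bases before it. RefSeq had an upstream sequence for 39 members. Over the same 250 bases, searched on both strands, TGACNNNGC was present in 5 of these 39, or 12.8%, and in 11.5% of all 27025 genes with an entry. CCAAT, the letters bound by NF-Y, was present in 14 members, or 35.9%, and in 37.5% of all genes. CGGAAG was present in 20 members, or 51.3%, and in 15.3% of all genes. The median GC content of the window was 57.6% over the members and 52.4% over all genes. A match is a run of letters, not a known binding site, and none of the motifs overlaps another in the 4 sequences shown. The sequences of Psmd1, which holds CGGAAG, and of Psme2b, which holds none of the motifs, were also selected but are not printed.

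The core genes lay well above the typical expressed gene, the cap genes somewhat lower and the assembly chaperones lowest. The 14 core genes had a median of 39.2 ± 12.1 TPM (SD, n = 4 libraries), the 17 cap genes one of 24.7 ± 6.30 TPM, the 6 activators and inhibitors one of 17.9 ± 3.86 TPM and the 7 assembly genes one of 5.73 ± 1.44 TPM. The median over the 9626 nuclear protein-coding genes detected was 7.95 ± 1.74 TPM. On the log2(TPM + 1) scale the core median exceeded the cap median by 0.74, 0.67, 0.51 and 0.60 in replicates 1, 2, 3 and 4, a mean of 0.63 ± 0.10, and the sign was the same in 4 of 4 libraries. The order of core and cap rests on the length correction: in CPM, counts scaled by the library total, the difference was -0.08. The assembly median lay 2.56 ± 0.14 below the core median on the same scale, with values of -2.71, -2.58, -2.36 and -2.58 in replicates 1 to 4. Without replicate 1 the core minus cap difference was 0.59 and the assembly minus core difference -2.51.

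**Figure D1:**
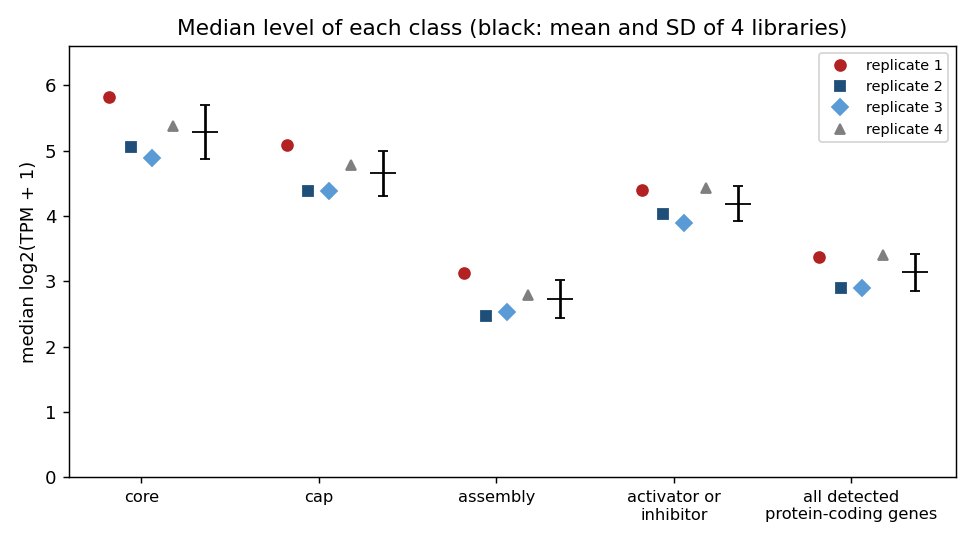
Median log2(TPM + 1) of the core, cap, assembly and activator or inhibitor genes and of all detected nuclear protein-coding genes, 1 point per library, with the mean and SD of 4 libraries in black. The core points lie above the cap points in each library, and the assembly points lie lowest among the proteasome classes and below the median of all detected genes.

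Within each of the core and the cap 1 gene stood above its classmates in TPM. Psmb6, which encodes the caspase-like catalytic subunit (ENSMUSG00000018286.6, chr11:70525367-70527858 of mm10), had 116, 101, 96.3 and 134 TPM in replicates 1, 2, 3 and 4, a mean of 111.7 ± 16.8 TPM. The next core gene, Psmb4, a structural beta subunit, had a mean of 44.8 ± 12.9 TPM. No library of Psmb4 reached the lowest library of Psmb6. The lowest core gene in TPM was Psma2, an alpha subunit, with 25.7, 15.2, 13.9 and 19.4 TPM in replicates 1 to 4. That rank rests on the length correction: its mean count was 2508, above the 1738 of Psmb5. The other catalytic genes, Psmb5 for the chymotrypsin-like site and Psmb7 for the trypsin-like site, had means of 39.1 ± 16.2 and 31.3 ± 10.6 TPM. In the cap, Psmd8, a lid subunit (ENSMUSG00000030591.17, chr7:29174188-29180701), had 90.2, 96.9, 82.5 and 119 TPM in replicates 1 to 4, a mean of 97.3 ± 15.9 TPM. The next cap gene was Psmd2, a scaffold subunit of the base, with a mean of 49.8 ± 10.7 TPM, and the lowest was Psmd12, a lid subunit, with 15.7 ± 5.81 TPM. In the cap, too, the libraries of the highest and the next gene did not overlap in TPM. That order rests on the length correction. Psmd8 had 4986, 10642, 7365 and 9268 counts in replicates 1 to 4, and Psmd2 had 7683, 9679, 8065 and 9271. Psmb6 ranked above 96.5% and Psmd8 above 95.9% of the detected protein-coding genes.

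The remaining core genes lay close together. Means of the alpha ring genes Psma1 to Psma7, which close and open the gate, spanned 18.6 to 44.4 TPM, and those of the beta ring genes without Psmb6 spanned 24.7 to 44.8 TPM. From Psmb7 up to Psmb4, neighbours in this order differed by less than the SD of either gene between libraries. That SD includes the shift in TPM that the genes of a library share, so it does not show whether neighbours differ within a library. Psmb5 had 61.7, 28.3, 26.4 and 39.9 TPM in replicates 1 to 4. Its neighbour Psmb3 had 45.8, 25.9, 23.0 and 33.1 TPM, lower in each library. The ATPase genes Psmc1 to Psmc6 spanned 18.3 to 40.0 TPM, with Psmc3 the highest and Psmc6 the lowest. The base subunits Psmd1, a scaffold like Psmd2, and Psmd4, a ubiquitin receptor, had means of 31.6 ± 12.9 and 31.2 ± 6.36 TPM. Psmd14, the lid's deubiquitinase, had a mean of 26.3 ± 9.06 TPM and Psmd7, its inactive partner, one of 21.3 ± 7.45 TPM.

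Among the assembly genes Psmg4 was the highest, with 16.3, 10.02, 8.71 and 16.4 TPM in replicates 1, 2, 3 and 4. Its product pairs with that of Psmg3 to build the alpha ring, and Psmg3 had a mean of 5.95 ± 1.46 TPM. Psmg1 and Psmg2, the genes of the other pair that acts on the alpha ring, had means of 4.80 ± 2.30 and 4.62 ± 1.98 TPM. The chaperones of the ATPase ring were Psmd10 at 7.70 ± 1.46 TPM, Psmd9 at 5.55 ± 1.02 TPM and Psmd5, the lowest assembly gene, at 4.08 ± 1.19 TPM. The activator genes Psme2 and Psme1, whose products form the interferon-induced ring that opens the core, had means of 76.5 ± 15.0 and 56.1 ± 12.7 TPM. Psme3, the gene of a nuclear ring of the same family, had 20.5 ± 7.02 TPM, and Psme4, the gene of a large single-chain activator, had 12.5 ± 3.07 TPM. Psmf1, the gene of a core inhibitor, was the lowest of this class, with 5.57 ± 1.33 TPM.

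The tissue-specific genes and the symbol-only match were not detected at a mean of 1 TPM. Psma8, the testis alpha subunit, had 1.31, 0.50, 0.35 and 0.74 TPM in replicates 1 to 4. Psmb11, the thymic catalytic subunit, had 0 counts in every gene table, which allows a level of up to 0.0997 CPM in replicate 1, the shallowest library, and 0.0626 CPM in replicate 2, the deepest, from counting error alone. The target tables assigned its longer transcript 3.36, 5.45, 31.9 and 16.6 estimated counts in replicates 1, 2, 3 and 4, so those limits hold for the gene tables only. Psmc3ip had 2.36 TPM in replicate 1, against 0.39, 0.32 and 0.48 TPM in replicates 2, 3 and 4.

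**Figure D2:**
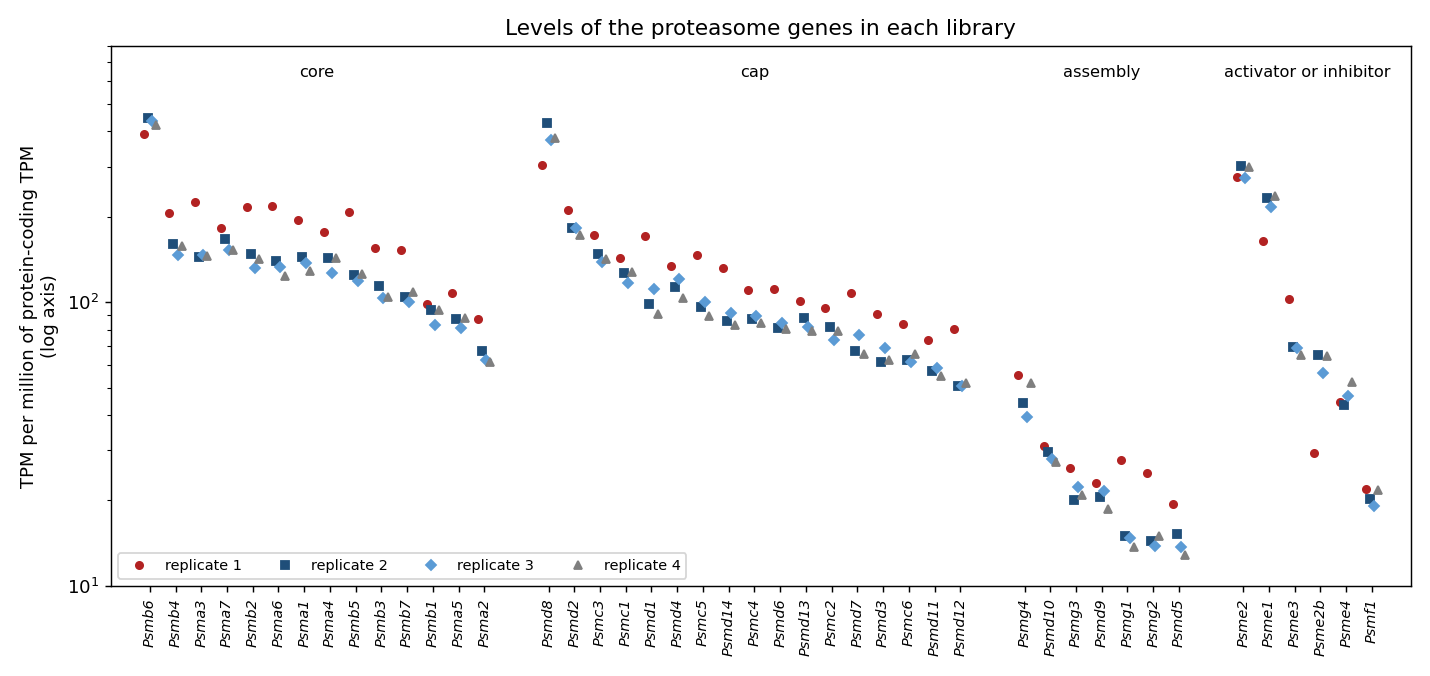
Rescaled TPM (log axis) of the 44 detected members in each of the 4 libraries, grouped by class and ordered by mean TPM. Psmb6 and Psmd8 lie above the rest of the core and the cap, and replicate 1 lies above replicates 2, 3 and 4 for most core and cap genes but below them for both of these.

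Replicate 1 differed from the other libraries in a broad part of the proteasome, with 8 of 14 core, 8 of 17 cap and 3 of 7 assembly genes higher and with Psme1, of the interferon-induced activator, and the copy Psme2b lower. Of the 46 members tested, 23 passed, 21 higher and 2 lower in replicate 1. Over all 14041 genes tested 22% passed, 14.5% higher and 7.58% lower. Psmb11 had no counts and was not tested. Among the 36 members whose mean count reached 1000, 17 were higher and 1 lower, against 17.2% higher and 13.3% lower over the 5577 genes at that depth. The median log2 fold of replicate 1 over the other 3 was 0.34 over the tested members, -0.00 over all genes tested and 0.06 over the protein-coding genes tested. Without replicate 4 the count was 14, 12 higher and 2 lower. In bulk RNA, a different mix of cells and a different RNA content per cell cannot be told apart.

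The same library also differed in other gene groups. The median log2 fold of replicate 1 was -0.0045 over all genes tested and 0.06 over the protein-coding genes tested. Over the 14 proliferation genes it was 1.97. Their summed rescaled TPM was 1617 in replicate 1, against 507, 525 and 508 in replicates 2, 3 and 4. The 10 interferon response genes had a median log2 fold of -1.09 in replicate 1. They summed to 1097 rescaled TPM in replicate 1, against 2125, 1992 and 2006 in replicates 2, 3 and 4. Of 20 markers of other blood and stromal cells only Pf4 was detected and Mcpt4 was at 0 in every library. The summed rescaled TPM of the 20 was 3181 in replicate 1, against 698, 797 and 632 in replicates 2, 3 and 4, nearly all of it Pf4. Ppbp, listed with Pf4 as a megakaryocyte marker, had only 5.89, 2.73, 3.78 and 1.52 rescaled TPM in replicates 1 to 4. The stromal markers Pdgfra, Col1a1 and Col3a1 had 64, 111 and 38 counts in replicate 3 and at most 12 in any other library. Of the macrophage markers, Itgam and C1qa were higher and Mertk lower in replicate 1. The nuclear RNAs Malat1, Neat1, Xist and Kcnq1ot1 summed to 1179 rescaled TPM in replicate 1, against 1185, 5013 and 3325 in replicates 2, 3 and 4, so they did not set replicate 1 apart. The part of these groups in the proteasome differences was not tested.

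In the core the median log2 fold of replicate 1 was 0.42, against 0.06 over the protein-coding genes tested. Psmb5 had the highest fold of the core genes (ENSMUSG00000022193.7, chr14:54614119-54618022). It had 209 rescaled TPM in replicate 1, against 125, 119 and 126 in replicates 2, 3 and 4, so that replicate 1 lay outside the narrow range of the others. The log2 fold was 0.71 ± 0.09 (SE, edgeR adjusted p = 0.0078). The trypsin-like Psmb7 had 153 rescaled TPM in replicate 1, against 104, 100.0 and 108 in replicates 2, 3 and 4, a log2 fold of 0.49 ± 0.08 (edgeR adjusted p = 0.017). The caspase-like Psmb6 had 392 rescaled TPM in replicate 1, against 445, 434 and 422 in replicates 2, 3 and 4, with a log2 fold of -0.21 ± 0.10 that did not pass (edgeR adjusted p = 0.19). It was the only core gene with a negative fold.

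Of the other core genes that passed, Psma6 had the highest fold, with 218 rescaled TPM in replicate 1, against 139, 133 and 123 in replicates 2, 3 and 4. Psma3 had 225 rescaled TPM in replicate 1, against 144, 147 and 145, and Psma1 had 195 in replicate 1, against 144, 138 and 129. Psma2 had 87.1 rescaled TPM in replicate 1, against 67.1, 62.4 and 61.3 in replicates 2, 3 and 4. These 4 are the alpha ring genes that passed, and replicate 1 exceeded each other library in all of them. In the beta ring Psmb2 had 217 rescaled TPM in replicate 1, against 148, 132 and 142 in replicates 2, 3 and 4. Psmb3 had 155 rescaled TPM in replicate 1, against 114, 104 and 105. Log2 folds of these 6 genes lay between 0.38 and 0.68. Psma1, Psma2 and Psmb3 no longer passed with RLE scaling, without replicate 3 or without replicate 4, Psmb3 also not by DESeq2, and Psmb2 not without replicate 4. The folds of Psmb4, Psma4, Psma5, Psma7 and Psmb1 lay between 0.09 and 0.34 and did not pass.

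In the cap the median log2 fold of replicate 1 was 0.34, against 0.06 over the protein-coding genes tested. The highest fold was that of the scaffold gene Psmd1, with 171 rescaled TPM in replicate 1, against 98.9, 111 and 91.1 in replicates 2, 3 and 4 (log2 fold 0.63 ± 0.15 SE, edgeR adjusted p = 0.040). The smallest p belonged to Psmd12, with 80.2 rescaled TPM in replicate 1, against 50.8, 50.8 and 51.9 in replicates 2, 3 and 4 (log2 fold 0.62 ± 0.08 SE, edgeR adjusted p = 0.0096). The deubiquitinase gene Psmd14 had 132 rescaled TPM in replicate 1, against 85.7, 91.5 and 83.2, and its partner Psmd7 had 108, against 67.4, 76.7 and 65.9 in replicates 2, 3 and 4. Both passed, with log2 folds of 0.56 and 0.59. The lid gene Psmd3 had 90.9 rescaled TPM in replicate 1, against 61.8, 68.9 and 62.5 in replicates 2, 3 and 4. Psmd6, also of the lid, had 112 rescaled TPM in replicate 1, against 81.1, 84.6 and 80.2. Replicate 1 lay above the other libraries in both, with log2 folds of 0.46 and 0.43 that passed. Of the ATPase genes only Psmc5 and Psmc6 passed. Psmc5 had 147 rescaled TPM in replicate 1, against 96.5, 99.7 and 89.1 in replicates 2, 3 and 4, and Psmc6 had 83.8, against 62.6, 61.5 and 65.4. Psmc6, Psmd3 and Psmd6 no longer passed without replicate 4, and Psmd3 and Psmd6 also not without replicate 2.

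Psmd8, the most abundant cap gene in TPM, was the only cap gene with a negative fold. It had 305 rescaled TPM in replicate 1, against 427, 372 and 377 in replicates 2, 3 and 4. The log2 fold was -0.40 ± 0.14 (SE) and did not pass (edgeR adjusted p = 0.10). On the scaled count replicate 1 was the lowest library for the gene with the highest mean TPM in the core and in the cap. It was the highest for 13 of 14 core genes and 16 of 17 cap genes. Over the 46 members replicate 1 was the highest library for 39 and the lowest for 6. Over all genes tested it was the highest for 41.4% and the lowest for 33.4%.

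**Figure D3:**
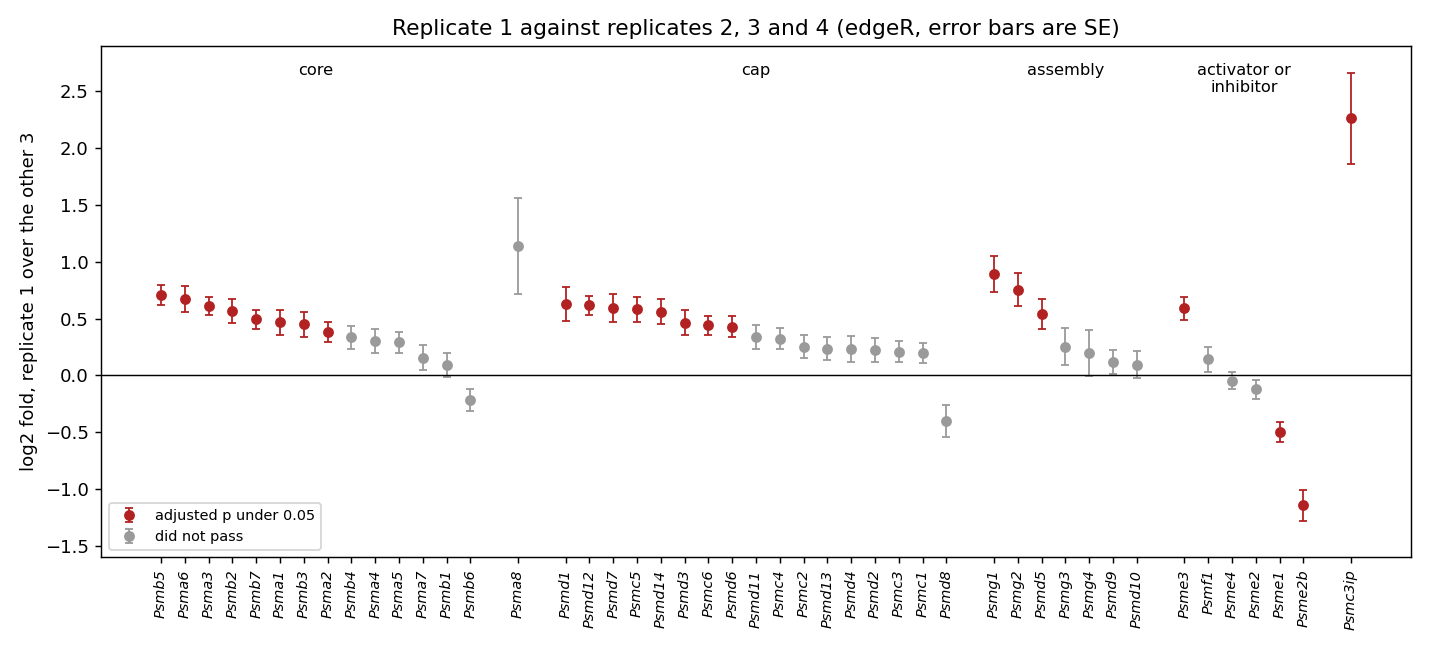
Log2 fold of replicate 1 over replicates 2, 3 and 4 for the 46 members tested, with SE, grouped by class; Psma8 stands between core and cap and Psmc3ip at the right edge. Red points passed at an adjusted p under 0.05: 8 in the core, 8 in the cap, 3 in the assembly class, 3 among the activators and inhibitor, and Psmc3ip, while Psmb6 and Psmd8 lie below 0 in grey.

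All 7 assembly genes had a positive fold in replicate 1, as did 6971 of the 14041 genes tested and 6510 of the 11740 protein-coding genes tested. Psmg1 (ENSMUSG00000022913.16, chr16:95979933-95990960) had 27.7 rescaled TPM in replicate 1, against 15.0, 14.8 and 13.7 in replicates 2, 3 and 4, a log2 fold of 0.89 ± 0.16 (SE, edgeR adjusted p = 0.020). Its partner Psmg2 had 24.9 rescaled TPM in replicate 1, against 14.4, 13.8 and 15.0, a log2 fold of 0.75 ± 0.15 (SE, edgeR adjusted p = 0.024). In both, replicate 1 lay apart from a narrow range of the other libraries. The other chaperone pair did not pass: Psmg3 and Psmg4 had log2 folds of 0.25 ± 0.16 and 0.20 ± 0.20 (SE). The difference between the pairs was not tested. Psmd5 passed, with 19.5 rescaled TPM in replicate 1, against 15.2, 13.7 and 12.8 in replicates 2, 3 and 4, and Psmd9 and Psmd10 did not. Psmg2 no longer passed without replicate 4 or by DESeq2, and Psmd5 not without replicate 3 or 4 or with RLE scaling.

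Of the 6 activator and inhibitor genes 1 was higher and 2 were lower in replicate 1, against 14.5% higher and 7.58% lower over all genes tested, and counts this small are read gene by gene. Psme1, of the interferon-induced ring, was lower in replicate 1, with 165 rescaled TPM, against 233, 217 and 237 in replicates 2, 3 and 4 (log2 fold -0.50 ± 0.09 SE, edgeR adjusted p = 0.020), a call that was lost in the target tables. Its partner Psme2 had 276 rescaled TPM in replicate 1, against 302, 274 and 300.2 in replicates 2, 3 and 4, and did not pass (log2 fold -0.12 ± 0.09 SE). Psme3, of the nuclear ring, was higher in replicate 1, with 103 rescaled TPM, against 69.2, 69.2 and 65.4 in replicates 2, 3 and 4 (log2 fold 0.59 ± 0.10 SE, edgeR adjusted p = 0.017). Psme4 and Psmf1 had log2 folds of -0.05 and 0.14 and did not pass. Psme2b, an annotated copy of Psme2, was the other lower gene, with 29.4 rescaled TPM in replicate 1, against 65.2, 56.4 and 64.6 in replicates 2, 3 and 4 (log2 fold -1.15 ± 0.14 SE, edgeR adjusted p = 0.0077). Its transcript shares 76.5% of its runs of 31 bases with Psme2, and Psme2 shares 66.2% of its own with Psme2b, so the split of reads between them is uncertain. Psme2b, with a mean of 641 counts, also overlaps a gene on the same strand, 9930111J21Rik1, which had a mean of 3975 counts, so the lower call is uncertain.

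Psmc3ip had the highest fold of all members in replicate 1, a log2 fold of 2.26 ± 0.40 (SE, edgeR adjusted p = 0.019), from 107 counts in replicate 1, against 38, 24 and 30 in replicates 2, 3 and 4. It did not pass without replicate 3. It overlaps Mlx on the opposite strand and shares 28.1% of its runs of 31 bases with it. Mlx had a mean of 904 counts, and a strand setting for the counts is not named, so reads of the overlapping genes cannot be told apart. Psma8 had 76 counts in replicate 1, against 59, 32 and 53, and did not pass (edgeR adjusted p = 0.12).

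In the same motif search, CGGAAG was present upstream of 10 of the 16 members higher in replicate 1 that had a RefSeq entry, and of 10 of the 23 others, which include the lower genes Psme1 and Psme2b and the untested Psmb11. TGACNNNGC was present in 3 of these 16 and 2 of these 23, and CCAAT in 8 of 16 and 6 of 23. Psmb5 and Psmb6, whose sequences are printed above, both hold TGACNNNGC and had folds of opposite sign.

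No member passed when replicate 2, 3 or 4 was the library compared. Each was compared with the other 3 libraries, and edgeR called 0 of the 46 members in each comparison. Over all genes tested 0% passed in each. At an unadjusted p under 0.05 edgeR also gave 0 members in each comparison, against 1.97%, 0.961% and 0.741% of all genes tested in replicates 2, 3 and 4. DESeq2 called 0 members in each, against 0.057%, 0.0214% and 0.121% of all genes. Each of these comparisons has replicate 1 among its other libraries, which widens their spread. The 4 comparisons share libraries and are not independent. The median SD of the scaled log2 count over the tested members was 0.22 over the 4 libraries and 0.09 over replicates 2, 3 and 4. Over all genes tested it was 0.25 and 0.13. Between libraries, 44 of 46 members varied by more than counting error (deviance of a Poisson fit, adjusted p under 0.05), as did 82.8% of all genes tested, and the exceptions were Psme4 and Psmd10.

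Each constitutive catalytic gene has an immune counterpart that replaces it in the immunoproteasome, and the ratio of their TPM within a library does not depend on that library's scaling. Psmb5 over Psmb8 was 0.879 in replicate 1, against 0.535, 0.527 and 0.533 in replicates 2, 3 and 4. Psmb7 over Psmb10 was 0.979 in replicate 1, against 0.481, 0.506 and 0.465 in replicates 2, 3 and 4. Psmb7 overlaps Nek6 on the opposite strand, which limits its ratio. In both pairs the ratio was higher in replicate 1 than in each other library, and the other libraries lay close together. With counts in place of TPM, an alternative added after seeing the data, Psmb5 over Psmb8 was 0.720 in replicate 1, against 0.434, 0.433 and 0.431 in replicates 2, 3 and 4. On that scale Psmb7 over Psmb10 was 1.66 in replicate 1, against 0.795, 0.864 and 0.830, so whether a ratio lies above or below 1 rests on the length correction. Psmb6 over Psmb9 was 5.86 in replicate 1, against 5.76, 5.78 and 5.07 in replicates 2, 3 and 4, so that replicate 1 did not stand apart there. In counts it was 3.78 in replicate 1, against 3.32, 3.73 and 3.07. With 1 library against 3 the ratios were not tested. Of the immune genes, Psmb10 was lower in replicate 1 (log2 fold -0.51 ± 0.11 SE, edgeR adjusted p = 0.031), a call lost without replicate 2 and in the target tables, and Psmb8 and Psmb9 did not pass, with log2 folds of -0.03 and -0.38. The interferon response genes given above were lower in the same library, and their part in these ratios was not tested.

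**Figure D4:**
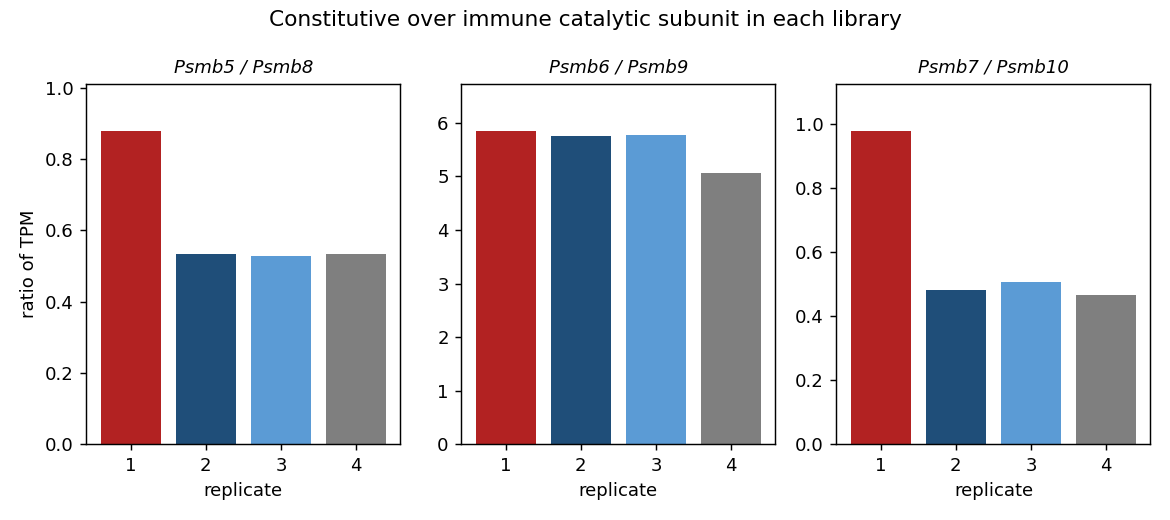
Ratio of the TPM of each constitutive catalytic gene to that of its immune counterpart in replicates 1 to 4, 1 bar per library. The bar of replicate 1 is the highest for Psmb5 over Psmb8 at 0.879 and for Psmb7 over Psmb10 at 0.979, while the bars of Psmb6 over Psmb9 lie between 5.07 and 5.86.

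Genes that work with the proteasome but carry other symbols were taken as a list of 35, of which 33 were found, and all 33 were detected. In replicate 1, 5 were higher and 2 lower, shares close to the 14.5% higher and 7.58% lower over all genes tested, with a median log2 fold of 0.10. The list as a whole was thus near the background, and only its single genes are described. The genes higher in replicate 1 included both of the cap-bound deubiquitinases of the list. Uchl5 had 61.5 rescaled TPM in replicate 1, against 31.5, 33.0 and 29.8 in replicates 2, 3 and 4 (log2 fold 0.97 ± 0.11 SE, edgeR adjusted p = 0.0065), and Usp14 had 97.3 rescaled TPM in replicate 1, against 53.5, 60.2 and 62.6 (log2 fold 0.70 ± 0.08 SE). Ipo9, a nuclear import factor, had a log2 fold of 0.79, Txnl1, a thioredoxin-like protein bound to the cap, one of 0.72, and Ubqln1, a ubiquitin shuttle, one of 0.45 that did not pass with RLE scaling or without replicate 3 or 4. The lower genes were Psmb10 and Bach1, a repressor at antioxidant response elements, with a log2 fold of -0.58 that did not pass in the target tables. Nfe2l1, the regulator named above, had 125 rescaled TPM in replicate 1, against 126, 136 and 112 in replicates 2, 3 and 4, and a log2 fold of 0.00 ± 0.15 (SE).

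Most proteasome RNA was assigned to protein-coding transcripts. In the transcript tables that match the gene tables, the most abundant transcript was protein-coding for all 46 members with a value, and in the target tables, which the text deposited with the files lists as derived from reads rather than from an alignment, for 44 of 46. The median share of a member's TPM in transcripts not annotated as protein-coding was 1.81%, or 2.38% in the target tables. Over 8924 detected protein-coding genes with more than 1 transcript it was 4.22%, and 7.72% over 8922 in the target tables. The share exceeded 20% in 4 of the 46 members in both kinds of table, Psma3, Psmd13, Psmc3ip and Psma8. It did so in 19.8% of those detected genes, or 25.6% in the target tables. The members were not filtered in the same way: Psmc3ip and Psma8 were not detected, and Psme2b has 1 transcript. In Psma3 the share was 49.1 ± 3.62%, and 62.3% in the target tables. In the transcript tables that match the gene tables, 1 retained-intron transcript held 27.8%, 26.3%, 32.7% and 30.0% of Psma3 in replicates 1 to 4. In the same tables, 1 transcript annotated as a target of nonsense-mediated decay held 22.0%, 24.1%, 15.4% and 10.9%. In Psmd13, a lid gene, it was 39.5 ± 3.56%, and 1 nonsense-mediated decay transcript held 38.5%, 37.9%, 27.6% and 38.1% in replicates 1 to 4. In Psmb6 the share was 18.3 ± 4.02%, from retained-intron transcripts. In Psmc6 the tables disagreed, with 7.13% in the transcript tables and 35.2% in the target tables.

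**Figure D5:**
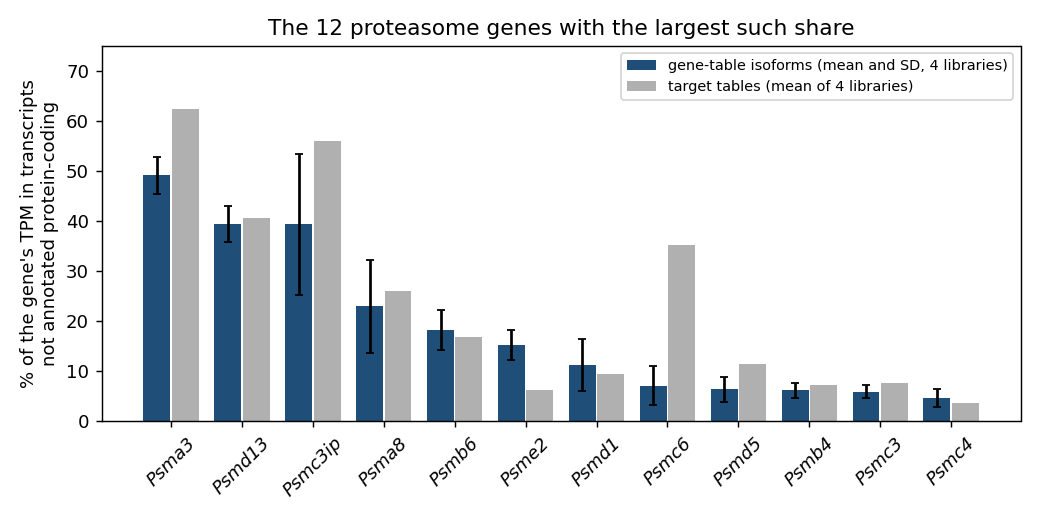
Percent of a gene's TPM in transcripts not annotated as protein-coding, for the 12 members with the largest share: dark bars are means with SD over 4 libraries in the transcript tables that match the gene tables, and grey bars are means over the target tables. Psma3 at 49.1% and Psmd13 at 39.5% lead the expressed members in the dark bars, and the kinds of table differ most for Psmc6.

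Shared sequence limits some of these values. Under 5% of the runs of 31 bases in the most used coding transcript occurred in another gene for 26 members, and at least 50% did for 6: Psma3, Psma5, Psmb3, Psmb5, Psme2 and Psme2b. For Psmb5 the closest other gene had a mean of 2.85 counts, for Psmb3 2.87, for Psma5 5.05 and for Psma3 22.8, all far under the member's own count. For the Psme2 and Psme2b pair the counts of both were large enough to matter. Of the 47 members, 7 overlap a gene with at least 5% of their own count. Psmb7, with a mean of 1987 counts, overlaps Nek6 on the opposite strand, which had 3132.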

How the data were processed

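Ribosome-depleted cytosolic RNA of 4 libraries was measured. Per the file headers, the authors deposited a gene table with expected counts and TPM, a transcript table of the same layout that also holds the percent of each isoform, and a target table with estimated counts and TPM. Annotation is GENCODE M21 on mm10. The gene tables' TPM interval bounds, a signal that the authors deposited, were read and not reported. The aligner, quantifiers and strand setting (not given in the sources used here) remain unknown. All annotated genes entered the fits. Features that name no gene held 0.407%, 0.224%, 0.177% and 0.0267% of counts in replicates 1 to 4 and were left out.

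Rounded expected counts of genes with a mean of at least 10 were scaled by TMM and tested in edgeR 4.0.16 (R 4.3.3), each library against the other 3, with Benjamini-Hochberg adjustment over all genes tested. The single library leaves no residual degree of freedom of its own, and it is assumed to vary like the others. DESeq2 1.42.0 was an alternative. Scaled log2 counts used a prior count of 2. Class levels are medians of log2(TPM + 1) per library. Limits from 0 counts, set at 3 counts, hold for counting error alone: without molecular identifiers, reads may repeat a molecule. Python 3.11.15, numpy 2.4.6, pandas 2.3.3 and matplotlib 3.10.9 did the rest.

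The members, classes and lists were chosen with earlier results of these data known, and the pair ratios were added after seeing the data. Named in full are the catalytic genes, the highest and lowest of each class, every member called, and, of the companion list, those called; the rule also names its 3 most abundant genes, which are not reported here. Members with no RefSeq upstream sequence were Psma8, Psmb1, Psmb2, Psmb7, Psmc3, Psmd3, Psmd7 and Psmg2.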

Additional observations from a re-analysis of the deposited data

Results flagged for a closer look

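Of 65 values over the 4 libraries that were checked for a sample far from the others, 4 stood out. The check sets apart about 1 in 20 groups by chance, and 4 of 65 is near that share. The pair ratios among the 4 were themselves added after seeing the data. Member levels were checked in TPM, not in rescaled TPM. A member not set apart here can still have replicate 1 apart in rescaled TPM. Psma3 is an example, with 225 rescaled TPM in replicate 1, against 144, 147 and 145 in replicates 2, 3 and 4. Psmc3ip had 2.36 TPM in replicate 1, above 0.39, 0.32 and 0.48 TPM in replicates 2, 3 and 4. The log2 ratio of Psmb5 over Psmb8 was -0.19 in replicate 1, above -0.90, -0.92 and -0.91 in replicates 2, 3 and 4. The log2 ratio of Psmb7 over Psmb10 was -0.031 in replicate 1, above -1.06, -0.98 and -1.10 in replicates 2, 3 and 4. The log2 ratio of Psmb6 over Psmb9 was 2.34 in replicate 4, below 2.55, 2.53 and 2.53 in replicates 1, 2 and 3.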

How the results depend on the processing

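No paired analysis was possible because all 4 libraries form 1 group. In CPM, which keeps no length correction, the median levels were 5.80 for the core, 5.88 for the cap and 3.09 for the assembly genes on the log2 scale, so that core minus cap turned to -0.082, and assembly minus core was -2.72. The rest of this paragraph's levels are log2 medians too. With rescaled TPM they were 7.19, 6.54 and 4.49, and assembly minus core was -2.70. In the target tables they were 3.80, 3.22 and 1.60, and assembly minus core was -2.20. With a pseudocount of 0.1 assembly minus core was -2.74. Core minus cap stayed between 0.58 and 0.69 under every alternative run other than CPM. Leaving out a library gave 14 to 21 members called in replicate 1, and the 14, without replicate 4, no longer held Psma1, Psma2, Psmb2, Psmb3, Psmc6, Psmd3, Psmd6, Psmd5 and Psmg2 (nor, of the companions, Ubqln1). The other alternatives gave 19 to 24 members. Without replicate 3, Psma1, Psma2, Psmb3, Psmd5, Psmc3ip and Ubqln1 did not pass; without replicate 2, Psmd3, Psmd6 and Psmb10; in the target tables, Psme1, Psmb10 and Bach1; with RLE scaling, Psma1, Psma2, Psmb3, Psmd5 and Ubqln1; by DESeq2, Psmb3 and Psmg2. With counts in place of TPM the mean log2 ratios of Psmb6 over Psmb9 and Psmb7 over Psmb10 were 1.79 and -0.019, against 2.49 and -0.79 in TPM. Of the single-gene folds recomputed, 240 kept their direction and call, 29 kept only the direction and 0 reversed. The cause of these changes was not tested. Depth limits Psmc3ip and Psma8, with at most 107 and 76 counts in a library.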
